A study of Homo sapiens with 2 samples.

Results

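The SAA1-rich cells of the control HT1080 spheroids were 170 of the 3402 cells kept from the control library, and 170 of 4787 kept cells in the series. They were chosen on the readout itself: control barcodes that had 1000 or more detected genes, and no more than 20% of their unique molecular identifiers (UMIs) from mitochondrially encoded genes, were ranked by SAA1 UMIs divided by cell UMIs, and the top 5% were taken. SAA1 levels below are therefore descriptions, and no other gene was used to choose the cells. HT1080 is an established human fibrosarcoma line, labelled here as wild type. Spheroids of 2000 cells were grown in collagen gels, about 50 per 500 µl, for 72 h, after which cells were freed with collagenase and then trypsin and counted with the 10x Genomics 3′ kit, version 3. The control culture was compared in the series with a culture given 2 µg/ml of 4B4, an antibody that blocks β1 integrin. The label of the control names no other antibody, and each group is 1 library, so no comparison here has a replicate check and no test was run.

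SAA1 encodes serum amyloid A1, a small secreted lipid-binding protein that the liver releases in large amounts during the acute-phase response and that tumour and stromal cells can also make. Its gene lies at chr11:18266174-18269977 on the plus strand (GRCh38, GENCODE release 29), beside SAA2 (chr11:18239223-18248643, minus strand), which encodes a nearly identical protein, and SAA4 (chr11:18231349-18236893, minus strand), a constitutively made member of the family. In liver and connective-tissue cells interleukin 1, tumour necrosis factor and interleukin 6 are known inducers of SAA1, acting through NF-κB, C/EBP factors and STAT3. NF-κB dimers bind DNA sites of the type GGNNNTTCC and switch on chemokines, survival factors and their own inhibitors.

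Levels are UMIs summed over a set of cells per 1000000 of the set's UMIs (UPM). The 170 cells held 6923283 UMIs, with a median of 37992.5 UMIs a cell. Each was matched to the 5 nearest other kept control cells by UMIs, giving 850 matched cells with 34613517 UMIs and a median of 37959. Ratios are SAA1-rich over matched cells on the log2 scale, and the values in brackets are exact 95% intervals, which hold counting error and no other source of spread. A gene with at least 5 UPM over all kept control cells was called higher or lower when its ratio reached 1.5-fold and its interval lay on the same side of 1.

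SAA1 UMIs were concentrated in few cells of the culture. Of the 3402 kept cells, 2692 (79.1%) had no SAA1 UMI, 271 had 1, 166 had 2 to 4, 98 had 5 to 9 and 175 had 10 or more. The 170 SAA1-rich cells held 6367 of the 7933 SAA1 UMIs (80.3%) beside 5.44% of all UMIs, and the 34 richest cells alone held 40.6% of the SAA1 UMIs. Within the SAA1-rich cells the count ran from 1 to 211 UMIs with a median of 25, and the level from 226 to 9409 UPM with a median of 574. Counts of at least 10 were found in 145 of them and counts under 5 in 5 shallow ones. The ranking has no gap at the cut: the last cell inside had 10 SAA1 UMIs of 44224, and the first outside had 11 of 48650. Within 1.25-fold of the cut lay 18 cells inside and 32 outside, so the 170 cells are the upper range of a continuous measure and not a type of cell. Among the kept cells outside, 108 had 5 or more SAA1 UMIs, and the 850 matched cells had 0 to 18. The SAA1-rich cells were not the deepest barcodes: 7 of them (4.12%) were among the 5% of kept cells with the most UMIs. They had a median of 6725 detected genes, against 6856 in matched cells. No doublet caller was run. The 2 libraries shared 2 barcodes, neither of them an SAA1-rich cell.

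**Figure D1:**
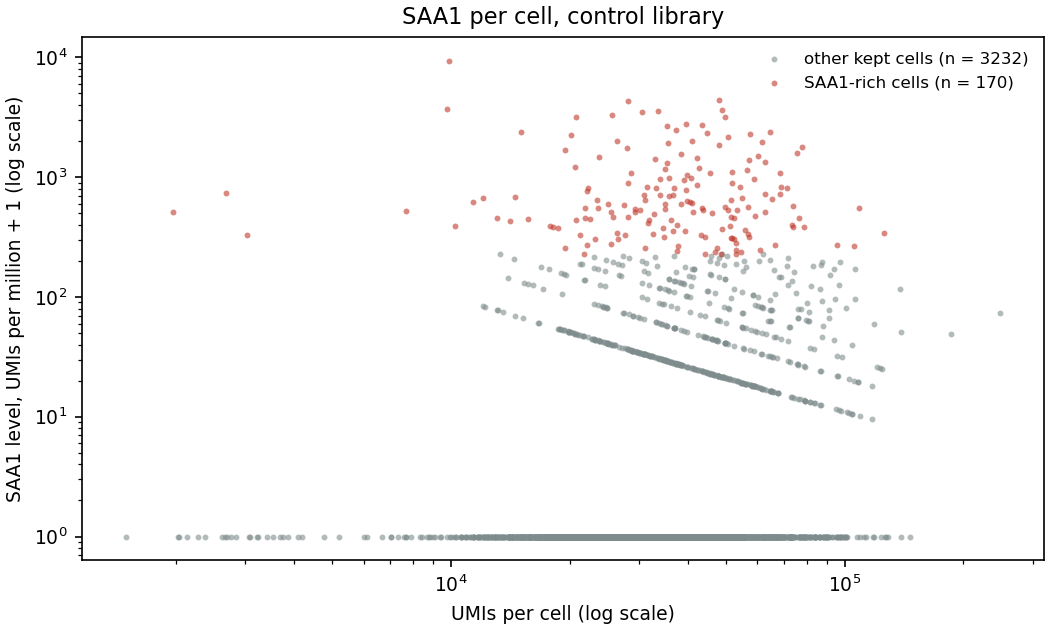
SAA1 level of every kept control cell (UPM plus 1, log scale) against its UMIs (log scale). The 170 SAA1-rich cells (red) lie above 226 UPM at depths from 1968 to 125741 UMIs, while other cells reach 247909. The diagonal bands of other cells (grey) are cells with the same small number of SAA1 UMIs.

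The cells carried the markers of the line. The 5 markers of mesenchymal HT1080 cells (VIM, CDH2, CD44, AXL and FN1) summed to 2857 UPM, against 2805 UPM in matched cells. VIM alone made up 2165 UPM of the first sum, and of the 5 markers 1 was called higher (AXL) and 1 lower (FN1). Hepatocyte markers, relevant because liver is the main source of SAA1, summed to 3.32 UPM over 7 genes and to 3.24 UPM in matched cells, with ALB, APOA2 and FGB at 0 in the SAA1-rich cells. Myeloid markers summed to 9.39 and 8.81 UPM over 7 genes, fibroblast markers to 5.34 and 4.77 over 6, epithelial markers to 9.53 and 12.9 over 6, and endothelial markers to 14.4 and 30.3 over 4. KDR, CDH1 and PDGFRA were at 0 in the SAA1-rich cells, as were KRT5, KRT14, PLIN1 and LEP. Adipocyte markers, 3 genes, summed to 0.144 and 0.260 UPM.

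Some stretches of sequence help in reading the results that follow. SAA1 and SAA2 are shown because their likeness bears on how UMIs are split between them: the coding sequences of SAA1-201 and SAA2-201 in GENCODE release 29 are both 369 bases long and are identical at 358 of them (97.0%). Their last 90 bases, 5′ to 3′ up to the stop codon, have 3 differing bases, given in capitals.
SAA1: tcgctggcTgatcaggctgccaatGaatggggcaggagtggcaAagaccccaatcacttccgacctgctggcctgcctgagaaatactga
SAA2: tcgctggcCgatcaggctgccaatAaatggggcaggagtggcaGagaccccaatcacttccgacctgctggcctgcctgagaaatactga
Counting is from the 3′ end of transcripts, so reads may fall outside this stretch, and how the counting treated reads that fit both genes is not given in the sources used here.

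Promoter stretches of 4 genes described below (CXCL8, CCL20, BIRC3 and PTX3) are shown because each holds the NF-κB type letters, given in capitals (GGNNNTTCC, or GGAANNNCC for the other strand). They are from RefSeq on GRCh38.p14, 5′ to 3′ on the strand of the gene, which is the plus strand for all 4, at chr4:73740319-73740505, chr2:227813592-227813821, chr11:102317234-102317449 and chr3:157436600-157436788. Each begins 250 bases before the RefSeq start and ends before the first base that GENCODE release 29 places in an exon.
CXCL8: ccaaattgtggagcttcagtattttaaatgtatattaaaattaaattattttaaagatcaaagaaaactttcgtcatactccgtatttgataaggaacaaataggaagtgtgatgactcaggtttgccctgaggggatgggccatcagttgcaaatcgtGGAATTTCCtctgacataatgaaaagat
CCL20: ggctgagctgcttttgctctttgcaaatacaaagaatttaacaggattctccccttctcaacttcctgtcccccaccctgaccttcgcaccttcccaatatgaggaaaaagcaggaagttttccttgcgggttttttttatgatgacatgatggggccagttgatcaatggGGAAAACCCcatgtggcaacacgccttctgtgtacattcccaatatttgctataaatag
BIRC3: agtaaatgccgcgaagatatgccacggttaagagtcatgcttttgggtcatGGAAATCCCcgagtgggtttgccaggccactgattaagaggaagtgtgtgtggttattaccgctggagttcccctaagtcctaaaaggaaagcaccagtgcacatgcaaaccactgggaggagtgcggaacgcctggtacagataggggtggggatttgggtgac
PTX3: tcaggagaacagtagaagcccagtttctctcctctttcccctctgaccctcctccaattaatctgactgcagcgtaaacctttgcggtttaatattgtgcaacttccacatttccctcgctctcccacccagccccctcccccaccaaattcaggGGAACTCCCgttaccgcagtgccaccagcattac
These letters occur on either strand in 6012 of the 35116 promoter entries of the table (17.1%) within the 250 bases before the start. Of 16 acute-phase, cytokine and NF-κB genes looked up, 12 had an entry, and 10 of these had a match in at least 1 entry (12 of 19 entries, some of which overlap). IL32, CXCL3, LTB, NFKB2, CD83 and TNFRSF9 were the other genes with a match. SAA4 and TRAF1 had none in these windows, and SAA1, SAA2, NFKBIE and RELB had no entry. A match of letters is a description and does not show that a factor bound there, and the 16 genes were picked after their values had been seen.

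Over the 11140 genes past the floor with SAA1 left out, 333 (2.99%) were called higher and 568 (5.1%) lower in the SAA1-rich cells, and the median log2 ratio was -0.02. Cell cycle, mitochondrial share and MALAT1, an abundant nuclear RNA, differed between the sets and are given with their values further on. With matched cells drawn from the same called phase the counts were 121 (1.09%) and 428 (3.84%). With cells of like depth and mitochondrial share they were 126 (1.13%) and 384 (3.45%), and with cells of like depth and MALAT1 share 252 (2.26%) and 245 (2.2%). Higher calls were thus 37.0% of all calls in the depth match and from 22.0% to 50.7% under these 3 matchings. The part of phase, mitochondrial share and MALAT1 in single genes was not tested, and values under the 3 matchings are given beside some of the genes. Where they are not given, a call in the depth match may not hold under them.

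Among acute-phase genes, SAA2 went with SAA1 and most others did not. Of the 33 acute-phase genes listed, 6 passed the floor: 2 (SAA2 and PTX3) were higher, 1 (CFB) was lower and 3 had no call, with a median log2 ratio of -0.11. SAA2 passed the floor only through the SAA1-rich cells, so a higher level there was fixed in advance and its call adds nothing to the count. SAA2 had 1264 UMIs in the SAA1-rich cells and 135 in the 5 times as many matched cells, which is 183 UPM (173 to 193) against 3.90 (3.27 to 4.62) and a log2 ratio of 5.55 (5.29 to 5.82). The SAA1-rich cells held 73.1% of the library's 1729 SAA2 UMIs. They had from 0 to 81 SAA2 UMIs each with a median of 3, and 123 of them (72.4%) had at least 1, against 6.82% of matched cells. With every cell thinned to 19000 UMIs these shares were 60.1% (51.9% to 67.9%) and 4.31% (2.99% to 6.0%). A culture of 1 cell line holds no cell type that should lack these transcripts, so there is no background share to set beside such values. The same was seen from the SAA2 side: of the 95 kept cells with 5 or more SAA2 UMIs, 73 (76.8%) were SAA1-rich.

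SAA2 made up a similar share of SAA1 plus SAA2 UMIs at every level of SAA1. The share was 19.0% (17.3% to 20.8%) in the 540 cells with SAA1 below the cut, 16.3% (14.7% to 17.9%) in the 102 cells ranked 5 to 2% from the top, 15% (13.3% to 16.8%) in the 34 ranked 2 to 1%, and 17.4% (16.2% to 18.6%) in the top 1%. The 2692 cells with no SAA1 UMI held 98 SAA2 UMIs. Whether some SAA2 UMIs are SAA1 transcripts assigned to the neighbouring copy was not tested. SAA4, the constitutive family member, had 21 UMIs in the library, of which 10 were in 9 SAA1-rich cells and 2 in matched cells. That is 1.44 UPM against 0.0578, far under the floor.

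PTX3, a secreted pattern-recognition protein of the pentraxin family that connective-tissue cells make on exposure to interleukin 1 or tumour necrosis factor, was at 88.0 UPM (81.1 to 95.2) against 36.1 (34.1 to 38.2). Its log2 ratio was 1.28, and it was 1.70 between cells called G1 and 1.07 to 1.22 under the other matchings. CFB, complement factor B, was lower at 4.77 UPM against 8.98 (log2 ratio -0.91). C1R and C1S, complement proteases, were at 4.91 against 6.53 UPM and at 16.0 against 19.3, and LRG1, a secreted glycoprotein, at 7.80 against 7.57, all without a call. The other 27 genes of the list were under the floor, among them several transcripts abundant in liver: SERPINA3 had 0 UMIs in the SAA1-rich cells, where 3 counts would be 0.433 UPM, SERPINA1 had 3, C3 had 7 and LCN2 had 7. CRP, the other classical acute-phase gene beside SAA1, had 2 UMIs and HP had 0, against 14 and 21 in matched cells.

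Of the 44 cytokine and chemokine genes, 12 passed the floor, with 3 higher (CXCL8, IL32 and EBI3), 1 lower (IL1B) and a median log2 ratio of 0.07. Summed over the 44 genes, the median SAA1-rich cell had 1820 UPM against 1912 in matched cells, and 43.5% lay above the matched median. Most of that sum is MIF, at 1593 against 1722 UPM over the sets, so the sum describes this gene more than the other cytokines. IL32, a cytokine made by many cell types under inflammatory stimulation, had its difference spread over many cells. It was at 37.8 UPM (33.4 to 42.7) against 12.4 (11.2 to 13.6), a log2 ratio of 1.61 (1.38 to 1.84). At equal depth it was seen in 42.5% of SAA1-rich and 16.5% of matched cells (61.2% and 27.2% without thinning), and the richest cell held 15 of 262 UMIs. Its log2 ratio was 2.40 between cells called G1, 1.55 against cells of the same phase, 1.49 with like mitochondrial share and 1.48 with like MALAT1 share. EBI3, a subunit of interleukins 27 and 35, was at 12.3 against 8.03 UPM (log2 ratio 0.61, and 0.42 and 0.47, short of the call, with like mitochondrial and MALAT1 share).

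Both chemokines with the largest ratios depended on 1 cell. CXCL8, the neutrophil-attracting interleukin 8, was at 25.9 UPM (22.2 to 29.9) against 7.74 (6.84 to 8.73), a log2 ratio of 1.74, and CCL20, a chemokine that draws lymphocytes and dendritic cells, was at 21.7 against 2.17 UPM. A single SAA1-rich cell of 9768 UMIs held 131 of the 150 CCL20 UMIs and 97 of the 179 CXCL8 UMIs, along with 36 SAA1 and 7 SAA2 UMIs. It also carried 17 UMIs of NFKB1, 6 of REL, 6 of BIRC3, 9 of IRF1 and 8 of MAFF, which at its depth is 1740 UPM for NFKB1 against 32.0 UPM over all kept cells. It had no UMI of NFKBIA, SOD2, IL6, IL1B or IL32. Over all kept cells those genes are at 3.55 to 73.1 UPM, too low for a count of 0 to mark out a cell of this depth. Its genes other than SAA1 were picked after their values had been seen. Without this cell the log2 ratio of CXCL8 was 0.62 and that of CCL20 0.34, while that of BIRC3 was 1.75. CXCL8 had a UMI in 28 SAA1-rich cells (16.5%) and in 14.1% of matched cells, and CCL20 in 7.65% and 6.47%.

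Other cytokines showed no common direction. LTB, lymphotoxin β, which signals to the NFKB2 arm of NF-κB, was under the floor with 48 UMIs in 21 SAA1-rich cells, at 6.93 against 1.65 UPM, and 16 of its UMIs came from 1 cell. Its log2 ratio was 2.07 in all, 1.65 without the richest cell of each set, and 0.46 between cells called G1. CXCL3, another neutrophil chemokine, was at 6.5 against 3.21 UPM. IL1B, the cytokine known as an inducer of SAA1, was lower, at 20.2 UPM (17 to 23.9) against 46.8 (44.6 to 49.1), with a log2 ratio of -1.21 that was -1.18 without the richest cell of each set, 1 matched cell having 216 IL1B UMIs. IL6 was scarce in both sets (19 and 108 UMIs, 2.74 and 3.12 UPM). LIF and IL11, cytokines of the interleukin 6 family, were at 5.49 against 5.43 UPM and at 25.3 against 18.7, neither called, and CSF1, the macrophage growth factor, was at 34.2 against 49.5 (log2 ratio -0.53, not called). CXCL1 and CXCL2 had no UMI in either library, CCL2 and TNF none in the SAA1-rich cells.

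Most NF-κB genes had no call, which was so for most genes: over all genes 2.99% were higher and 5.1% lower. Of 32 targets and feedback genes 24 passed the floor, with 3 higher (NFKBIE, PTGS2 and SDC4), 2 lower (NFKBIZ and BCL3) and a median log2 ratio of 0.20, beside -0.02 over all genes. Summed per cell, the median cell had 1334 UPM of the 32 genes against 1325 in matched cells, and 51.2% of the SAA1-rich cells lay above the matched median. A large part of that sum is IER3, at 723 against 773 UPM over the sets, so the sum says little about the other genes. Of 24 subunits and kinases 22 passed, with 2 higher (NFKB2 and RELB), 1 lower (TRAF6) and a median of 0.04, and the median cell had 679 against 630 UPM of these genes. NFKB2, the precursor of the p52 subunit, was at 18.6 UPM (15.6 to 22.1) against 11.2 (10.1 to 12.4), and RELB, its partner, at 34.4 (30.1 to 39.0) against 21.5 (20 to 23.1). Their log2 ratios were 0.73 and 0.68, and 0.74 and 0.65 against cells of the same phase, while RELB was below the call at 0.50 with like MALAT1 share. Among kinases and adaptors that act on NFKB2, MAP3K14 (the kinase NIK), CHUK (IKKα), TRAF3 and BIRC2 had no call, with log2 ratios of 0.16, -0.16, 0.49 and 0.19. TRAF2, under the floor, was at 7.37 against 4.59 UPM, a log2 ratio of 0.68 (0.20 to 1.14), and BIRC3 is given in the next paragraph. NFKB1, the p105 precursor, had a log2 ratio of 0.03 (-0.17 to 0.23) and RELA, the main transactivating subunit, 0.07 (-0.16 to 0.30). TRAF6, an adaptor of interleukin 1 receptor signalling, was at 3.18 against 6.76 UPM.

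NFKBIE, which encodes the inhibitor IκBε, was at 14.0 UPM (11.4 to 17.1) against 6.12 (5.33 to 7.01), with a log2 ratio of 1.19 that lay between 1.02 and 1.60 for cells of G1, of the same phase, of like mitochondrial share and of like MALAT1 share. It was seen in 25.5% against 9.67% of cells at equal depth (35.9% and 19.6% without thinning). BIRC3, the survival factor cIAP2, was under the floor over the whole library but had 87 UMIs in 36 SAA1-rich cells, at 12.6 UPM (10.1 to 15.5) against 3.47 (2.87 to 4.15), a log2 ratio of 1.86 that was 1.77 without the richest cell of each set. TRAF1 (6.5 against 2.77 UPM), CD83 (8.38 against 4.10) and ZC3H12A, the RNase regnase 1 (6.93 against 4.42), were also under the floor and higher. CD83 had a log2 ratio of 1.03 in all and -0.49 between cells called G1. A gene that reaches a floor only through the SAA1-rich cells must be higher there, so no list count is drawn from these genes under the floor. The floor over all kept cells does not fully avoid this. SAA2, TNNC1 and DYSF passed it only through the SAA1-rich cells and are among the genes counted as higher. With the floor set at 5 UPM in either set of cells, which lets in more such genes, 464 of 11461 genes (4.05%) were higher and 588 (5.13%) lower.

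NFKBIA, which encodes IκBα and responds fast to NF-κB, was at 94.5 against 72.7 UPM, a log2 ratio of 0.38 (0.25 to 0.50) short of the call. ICAM1, an adhesion molecule, had 0.40 (0.17 to 0.62), TNFAIP3, the feedback enzyme A20, 0.49 (-0.03 to 0.98), and SOD2, the mitochondrial superoxide dismutase, -0.02 (-0.18 to 0.13). NFKBIZ and BCL3, atypical IκB proteins, were lower with log2 ratios of -0.66 and -0.65. Both were short of the call with like mitochondrial share, at -0.31 and -0.38, and NFKBIZ had -0.12 with like MALAT1 share. PTGS2, the prostaglandin enzyme COX-2, had 28 of its 86 UMIs in 1 cell, and its log2 ratio of 0.78 was 0.30 without the richest cell of each set and -0.30 for the top 1% of cells. SDC4, a syndecan, was at 44.1 against 29.2 UPM (log2 ratio 0.60).

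**Figure D2:**
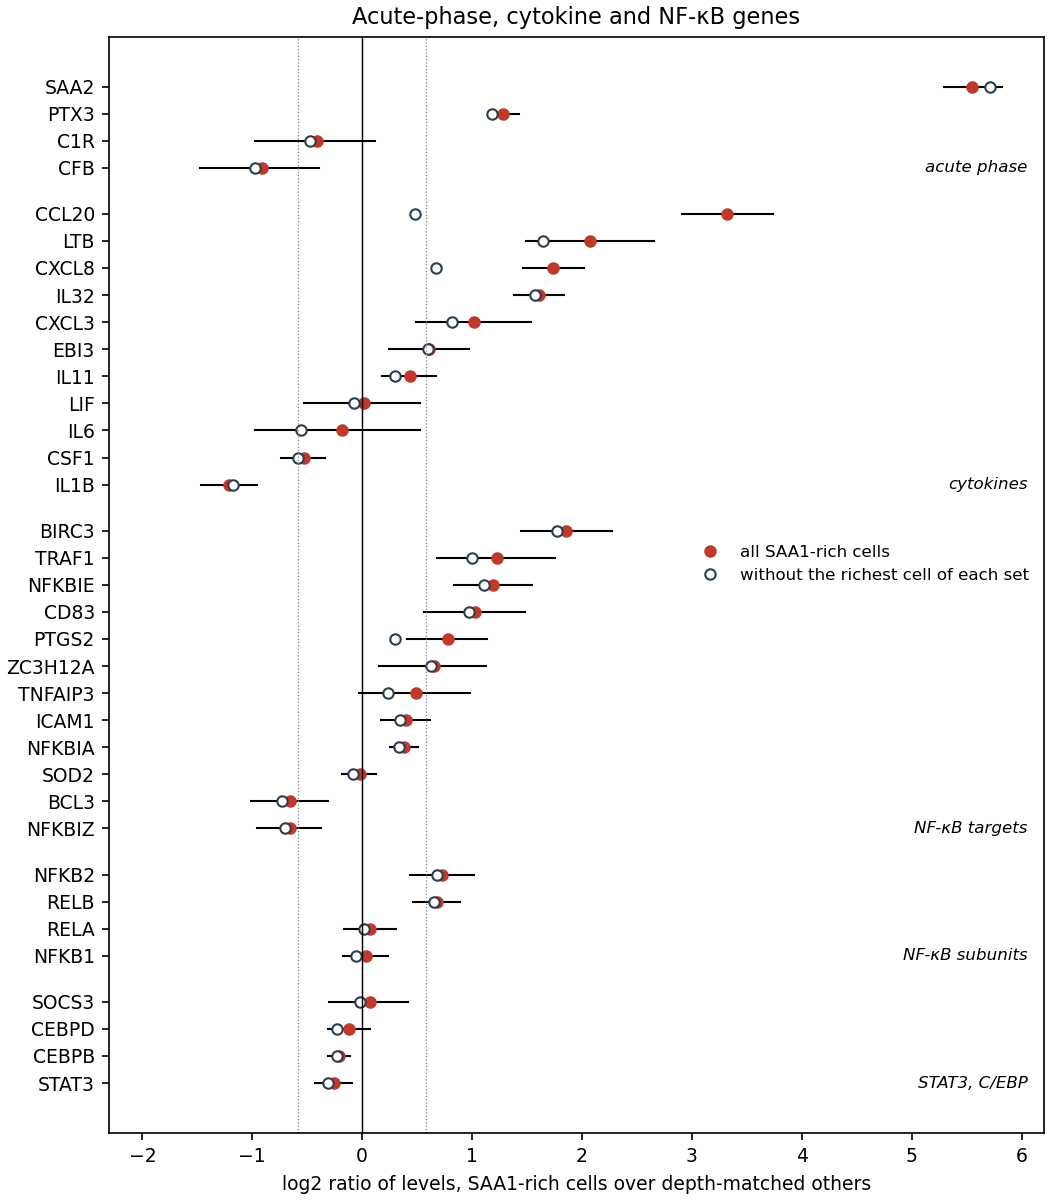
Log2 ratio of levels in the SAA1-rich cells over depth-matched cells for acute-phase, cytokine, NF-κB, STAT3 and C/EBP genes. Red points are all SAA1-rich over all matched cells with exact 95% counting intervals (lines), open points leave out the richest cell of each set, and dotted lines mark 1.5-fold. SAA2 lies at 5.55, without the richest cell IL32, BIRC3 and NFKBIE are at 1.57, 1.77 and 1.10, and CCL20 and CXCL8 at 0.48 and 0.67.

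Few receptors or other known regulators of SAA1 were called, and few genes at large: 2.99% of all genes were higher and 5.1% lower. Counts of 1 cannot set a list apart from these shares. Of 27 cytokine receptor genes 20 passed the floor, with 1 higher, 1 lower and a median log2 ratio of -0.12. TNFRSF12A, the receptor of TWEAK, which feeds the NFKB2 arm, was at 359 UPM (345 to 373) against 213 (208 to 218), a log2 ratio of 0.75 that was 0.59 against cells of the same phase and 0.56, short of the call, with like mitochondrial share. OSMR, the oncostatin M receptor, was at 45.6 against 69.9, but no receptor gene of the list was called lower under any of the 3 matchings. TNFRSF1A, the main tumour necrosis factor receptor, was at 71.2 against 84.4, IL6ST, the shared interleukin 6 receptor chain, at 93.0 against 77.7, and IL1R1 had 0 and 4 UMIs. Of 21 STAT3 and C/EBP genes 19 passed, with 1 higher (FOSL1, an AP-1 subunit, log2 ratio 0.64, and 0.35 against cells of the same phase), 0 lower and a median of -0.12. STAT3 (-0.26), CEBPB (-0.21), CEBPD (-0.12) and the STAT3 target SOCS3 (0.07) had no call.

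The levels of several genes changed along the range of SAA1 and not only at the cut, while others kept no order. From cells with no SAA1 UMI through cells below the cut to the ranks 5 to 2%, 2 to 1% and top 1%, SAA2 was at 1.04, 14.0, 81.5, 170 and 512 UPM. NFKBIE was at 5.90, 9.07, 11.8, 12.4 and 22.7 UPM and NFKB2 at 9.92, 15.4, 15.7, 19.9 and 26.4. IL32 was at 9.48, 22.6, 34.5, 30.9 and 55.9 UPM, and PTX3 at 29.5, 51.6, 85.4, 91.4 and 92.2. BIRC3 was at 2.08, 7.43, 8.93, 19.9 and 15.9 UPM, with wide intervals in the last 2 ranks (13.3 to 28.6 and 9.82 to 24.3). RELB, at 19.5, 27.7, 35.0, 36.4 and 30.2 UPM, and TNFAIP3, at 3.85, 6.25, 7.96, 3.44 and 4.53, kept no steady order among the SAA1-rich ranks. The steps were not matched. The cells without an SAA1 UMI had fewer UMIs (median 30880.5) than those of the other steps (37485.5 to 43763). TYMS, an S gene, was at 106, 189, 231, 265 and 275 UPM and MALAT1 at 13448, 8997, 7041, 4602 and 6439. The part of depth, phase and MALAT1 in the steps was not tested. In the opposite order, IL1B was at 47.5, 35.2, 24.8, 20.6 and 5.29 UPM. SOD2 stayed between 51.6 and 64.2 UPM at every step.

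**Figure D3:**
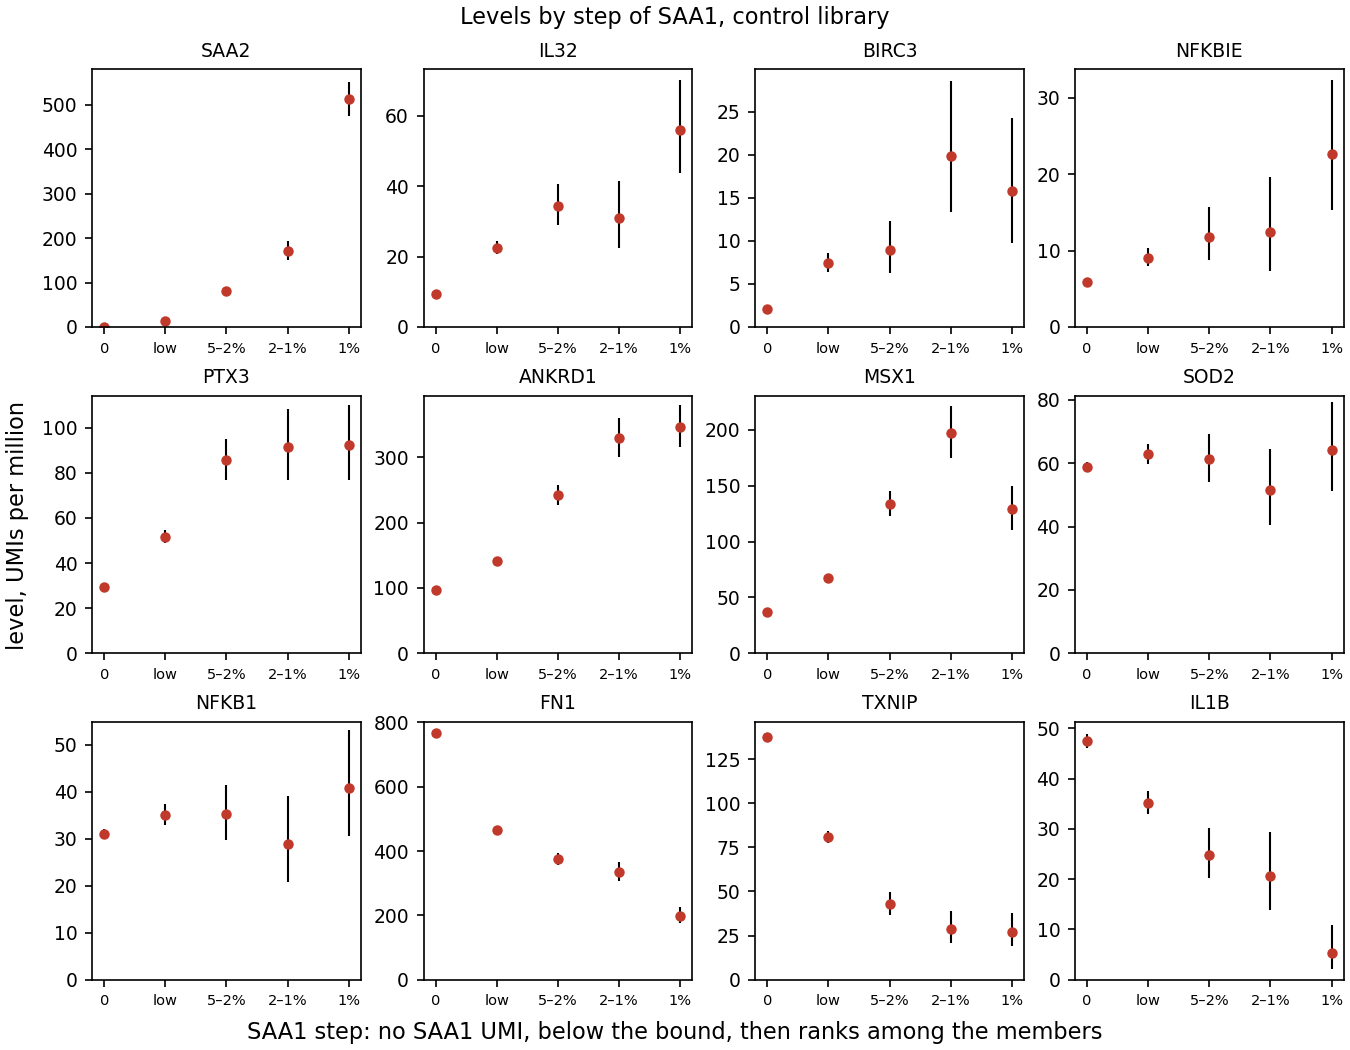
Levels of 12 genes (UPM, each axis from 0) in cells with no SAA1 UMI, in cells with SAA1 below the cut and in 3 ranks of the SAA1-rich cells, with exact 95% counting intervals. SAA2, IL32, NFKBIE, PTX3 and ANKRD1 are higher toward the right, FN1, TXNIP and IL1B are lower, and SOD2 stays between 51.6 and 64.2 UPM.

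The 12 largest ratios among calls with the same sign in every alternative were SAA2, TNNC1, CXCL8, KRTAP2-3, MSX1, IL32, SERPINB2, ANKRD1, DYSF, DCLK1, CCBE1 and TAGLN. Of these, SAA2, TNNC1 and DYSF passed the floor only through the SAA1-rich cells, which fixed their direction in advance. MSX1, a homeobox factor, was at 146 UPM (137 to 156) against 45.4 (43.1 to 47.7), and at 2.75 on the log2 scale between cells called G1 against 1.69 in all. TNNC1, a troponin C that binds calcium, was at 17.9 against 4.94 UPM, and TAGLN, the actin-binding protein transgelin, at 60.5 against 24.0. SERPINB2, the plasminogen activator inhibitor PAI-2, was at 21.4 against 7.42 UPM, from 19 cells of which 1 held 48 of 148 UMIs. KRTAP2-3, a keratin-associated protein gene with near copies in its cluster whose UMIs may be split, was at 36.3 against 11.2 UPM.

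Targets of YAP and TEAD, the factors that respond to stretch and adhesion, were the list with the most higher calls outside the cell cycle. Of 21 genes 19 passed the floor, 6 were higher and 0 lower, beside 2.99% and 5.1% over all genes, and the median log2 ratio was 0.34. The 6 were ANKRD1, F3, CCN1, AXL, CCN2 and AMOTL2. Against cells of the same phase 6 of the 19, AXL not among them, were higher, beside 1.09% over all genes. ANKRD1, a nuclear ankyrin-repeat protein, was at 280 UPM (268 to 293) against 107 (104 to 111), CCN1, a matrix-associated signalling protein, at 265 against 151, and F3, tissue factor, at 26.9 against 13.8. At equal depth ANKRD1 was seen in 66.0% of SAA1-rich and 46.1% of matched cells (71.8% and 52.0% without thinning). Its log2 ratio of 1.38 was 1.33 against cells of the same phase and 1.22 with like mitochondrial share. AXL, a receptor tyrosine kinase, had 0.74 in all and 0.49 and 0.50, short of the call, under these.

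Lower genes included matrix, integrin and hypoxia genes. Over all genes 2.99% were higher and 5.1% lower, shares to set beside the list counts here. Of 30 matrix and adhesion genes past the floor 1 was higher (TGFBI) and 4 lower (FN1, ITGA11, ITGA1 and ITGA2). FN1, fibronectin, was at 334 UPM (320 to 347) against 693 (685 to 702) and was lower at each step of SAA1, from 766 UPM in cells without SAA1 to 199 in the top 1%. ITGA11, a collagen-binding integrin subunit, was at 31.2 against 71.3 UPM. Of 28 hypoxia and glycolysis genes 0 were higher and 6 lower, among them NDRG1 (49.3 against 102 UPM) and VEGFA, the vascular growth factor (35.0 against 60.3). TXNIP, an inhibitor of thioredoxin and glucose uptake, was at 37.0 UPM (32.6 to 41.8) against 118 (114 to 121). SLC5A3, a myo-inositol transporter, was at 36.3 against 130, and CHI3L1, a secreted glycoprotein linked to inflammation, at 3.32 against 23.8 with 23 UMIs in 11 cells. The other 9 of the 12 lowest were SPINK4, ADARB2, LGR6, RANBP3L, KCNIP4, PLCL1, LSAMP, GNG2 and STPG2. APOE and APOC1, lipoprotein genes, were lower too (log2 ratios -0.88 and -0.97). Of 22 interferon response genes past the floor 0 were higher and 3 lower, and of 10 glucocorticoid response genes 0 were higher and 3 lower, among them TSC22D3 (8.09 against 12.3 UPM). Against cells of the same phase the lower calls were 2 for hypoxia, 0 for interferon and 1 for glucocorticoid genes, and 4 for matrix genes. Over all genes 3.84% were lower there, and counts of 1 or 2 are too few to set a list apart from that share. FN1 had log2 ratios of -0.78, -0.75 and -0.75 against cells of the same phase, of like mitochondrial share and of like MALAT1 share, and TXNIP -1.47, -1.49 and -1.36.

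The SAA1-rich cells were more often in cycle by their transcripts. With 153 SAA1-rich and 765 matched cells thinned to 19000 UMIs, 39.2% (31.4% to 47.4%) of SAA1-rich cells were called G1, against 64.6% (61.1% to 68.0%). S was called in 21.6% (15.3% to 28.9%) against 13.2% (10.9% to 15.8%) and G2M in 39.2% (31.4% to 47.4%) against 22.2% (19.3% to 25.3%). Without thinning the shares called G1 were 41.2% and 66.8%. The median cell had 1819 UPM of S genes against 603 in matched cells, and 2870 UPM of G2 and mitosis genes against 1018. Of 41 S genes past the floor 22 were higher and 0 lower, and of 52 G2 and mitosis genes 18 were higher and 0 lower, with medians of 0.61 and 0.49. Against cells of the same phase 0 of either list were higher and 1 of each was lower. The median mitochondrial share was 7.66% against 9.19%, and MALAT1 was at 6414 against 12529 UPM (log2 ratio -0.97).

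**Figure D4:**
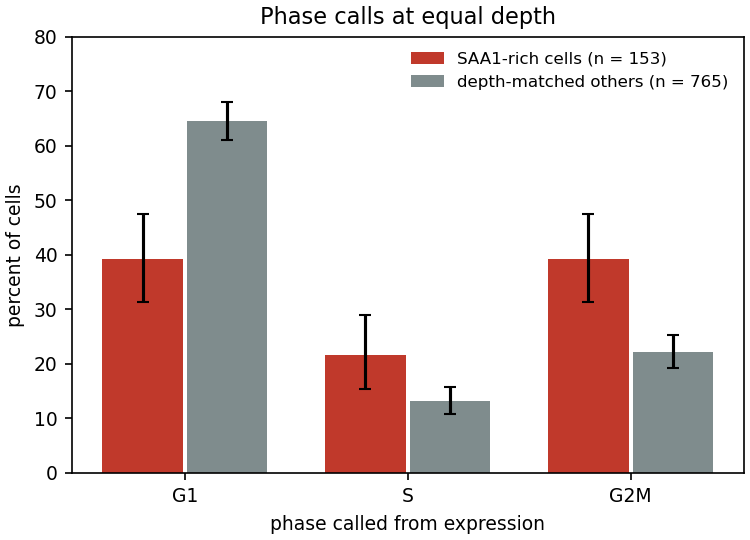
Percent of 153 SAA1-rich cells and 765 depth-matched cells called G1, S or G2M from expression after thinning to 19000 UMIs, with exact 95% binomial intervals. G1 was called in 39.2% of the SAA1-rich and 64.6% of the matched cells.

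SAA2 and several inflammatory genes were also higher when only cells called G1 were compared. Between the 60 SAA1-rich cells called G1 and their 300 matched G1 cells, 381 genes (3.42%) were higher and 877 (7.87%) lower. SAA2 had a log2 ratio of 6.52, PTX3 1.70, NFKBIE 1.60, BIRC3 1.69, NFKB2 0.95 and RELB 0.74. There, 6 of the 24 NF-κB targets past the floor were higher and 2 lower, and 5 of the 12 cytokines were higher and 2 lower. FN1 had a log2 ratio of -0.97 and TXNIP -1.53.

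The SAA1-rich cells were scattered through the culture's expression space with a mild tendency to lie together. In 30 principal components computed without SAA1 from thinned cells, they were 13.3% of the 15 nearest neighbours of SAA1-rich cells on average and 3.98% of those of matched cells, beside 5.18% of all 2951 cells placed. The share was 13.2% when SAA2 and SAA4 were left out as well and 13.2% without cell cycle genes. Of 153 cells, 34 had no SAA1-rich neighbour, and the highest share was 53.3%.

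The 4B4 library gave a look at cells the rule had not used. Of its 1385 kept cells 12, or 0.866% (0.448% to 1.51%), reached the control cut, and they held 75.6% of its 929 SAA1 UMIs. Against 60 depth-matched cells, 457 genes (4.16%) were higher and 2326 (21.2%) lower in those 12, a set too small for ratios of single genes to be given. Its own top 5% were 69 cells with a median of 2 SAA1 UMIs, 28 of them with 1, at 149 UPM of SAA1 against 0.235 in 345 depth-matched cells. Of 10993 genes 172 (1.56%) were higher and 264 (2.4%) lower in these 69 cells. SAA2 had a log2 ratio of 6.76 (39.9 against 0.369 UPM) and made up 21.1% (18.8% to 23.6%) of SAA1 plus SAA2 UMIs. It was under the floor of 5 UPM over the kept 4B4 cells. Of the 69 cells' 238 SAA2 and 889 SAA1 UMIs, 195 and 702 were in the 12 cells that reached the control cut. PTX3 was at 59.2 against 9.06 UPM, IL32 at 20.1 against 5.77, NFKB2 at 13.8 against 6.94 and RELB at 19.8 against 12.1. BIRC3 had a log2 ratio of 1.69 and ANKRD1 1.35, beside 1.86 and 1.38 in the control. Of the YAP and TEAD targets as a list, 2 of 18 were higher in the 69 cells, 0 lower, and the median was -0.07, beside 6 of 19 and 0.34 in the control.

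Other genes had different values in the 4B4 library, where treatment and library cannot be told apart and the difference between libraries was not tested. SOD2 had a log2 ratio of 1.04 there against -0.02 in the control, ICAM1 1.20 against 0.40 and IL11 1.72 against 0.43. CHI3L1 had 0.63 against -2.84 and IL1B 0.39 against -1.21, while FN1 had -0.21 against -1.06. Of S genes 13 of 36 were higher in the 69 cells, as in the control, but of 45 G2 and mitosis genes 0 were higher and 12 lower.

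**Figure D5:**
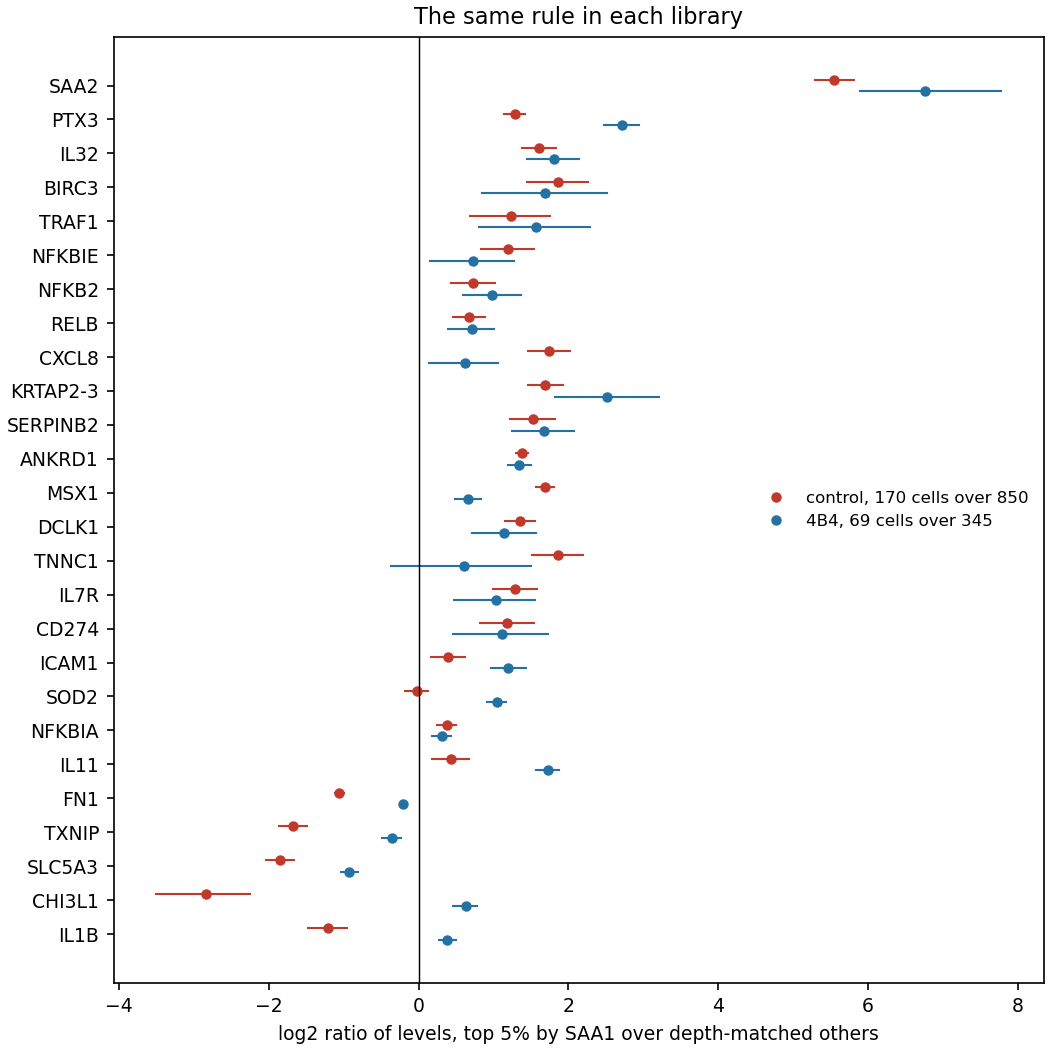
Log2 ratio of levels in the top 5% of cells by SAA1 over depth-matched cells, in the control library (red, 170 over 850 cells) and in the 4B4 library (blue, 69 over 345 cells), with exact 95% counting intervals. SAA2, IL32, BIRC3, NFKB2, RELB and ANKRD1 lie to the right of 0 in both, and CHI3L1 and IL1B lie on opposite sides.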

How the data were processed

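The deposited files hold UMI counts per gene and barcode. Per the submitters' processing notes the authors used Cell Ranger 7.1.0 and Seurat 5.0.1 with the build GRCh38. The sources used here do not give the gene annotation or read depth. Of 3642 control barcodes (128375944 UMIs) 3402 were kept, and of 1759 4B4 barcodes 1385. Groups came from the treatment labels. Matching was an optimal assignment on log UMIs with each cell used once. Ratios carry Clopper-Pearson intervals of the conditional binomial share, levels exact Poisson intervals, both at 95%. They ignore variation between cells, cultures and days and are too narrow for either. Phases used scanpy 1.11.5 with 43 S and 54 G2M genes on cells thinned to 19000 UMIs, which left out 17 SAA1-rich and 85 matched cells. The ratio step was checked on simulated data.

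The cells, the 19 gene lists and the 7 marker lists were chosen with earlier results of these data known. Named genes were the 12 largest ratios each way among calls with 1 sign in all alternatives, up to 4 per list and a set list; 1 gene that this rule names is not reported here. CCL20, LTB, CXCL3, TRAF1, TRAF2, CD83, ZC3H12A, SDC4, IL7R, TNFRSF9, CD274, PDCD1LG2, CRP, HP, TNF, CCN2, AMOTL2, ITGA2, MAP3K14, CHUK, BIRC2, C1S, LRG1, MIF and IER3 were named after their values were seen. In all, 22 alternatives were planned and 3 added after seeing the data, with TMM scaling from edgeR 4.0.16 among them.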

Additional observations from a re-analysis of the deposited data

How the results depend on the processing

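No paired analysis was possible because each group is 1 library. The largest ratios each way were named only from calls with the same sign in every alternative. Genes named by that rule alone could not turn sign, so they add nothing to the count that follows. Of 90 named genes with a call, these among them, 85 kept their sign under all 25 alternatives. The exceptions, whose sign turned without reaching 1.5-fold the other way, were CD83 between G1 cells (-0.49), CXCL3 for the top 2% (-0.026), NDC80 within phases (-0.065) and PTGS2 under the stricter filter of 2000 or more genes and up to 10% mitochondrial UMIs (-0.54), for the top 1% (-0.30) and for the top 2% (-0.51). IL18R1, at 6 UMIs, had no value under some.

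The 333 genes higher became 126 with like mitochondrial share, 121 within phases, 609 against cells without SAA1, 130 at a floor of 20 UPM, 881 with no floor, 691 for the top 1% and 556 for the top 2%. The 568 lower became 182 at 20 UPM, 1034 with no floor, 967 for the top 1%, 936 for the top 2%, 877 in G1 cells and 245 with like MALAT1 share. Fewer cells or genes enter some of these. Otherwise the cause was not tested. The SAA1-rich cells' share of SAA1 UMIs was 40.6% for the top 1%, 58.3% for the top 2%, 93.0% for the top 10% and 74.2% under the stricter filter. Matched cells called S were 9.88% without thinning and 17.3% under the stricter filter, where 28.1% were G2M. A gene at 5 UPM has less than 1 expected UMI in most cells, so depth limits statements on single cells to abundant genes.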

Other observations

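Of the surface proteins outside the lists above, 4 genes are described that were picked after their values had been seen, so they stand for no group. IL7R, the interleukin 7 receptor chain, was at 20.9 UPM (17.7 to 24.6) against 8.55 (7.61 to 9.58) and was seen in 33.3% against 12.9% of cells at equal depth. CD274, which encodes PD-L1, was at 13.9 UPM against 6.10, with a log2 ratio of 1.19 (0.82 to 1.54) that was 1.08 between cells called G1. PDCD1LG2, which encodes PD-L2, was at 7.37 against 3.06 UPM and TNFRSF9, the receptor 4-1BB, at 9.68 against 4.77. In the 4B4 library the log2 ratios of IL7R, CD274 and TNFRSF9 in the top 5% by SAA1 were 1.03, 1.11 and 1.69, and PDCD1LG2 had 0.35 (-0.70 to 1.29). PDCD1LG2 and TNFRSF9 lay under the floor of 5 UPM over all kept control cells.

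Of 16 p53 target and cell cycle arrest genes past the floor 2 were higher in the SAA1-rich cells and 0 lower, beside 2.99% and 5.1% over all genes. PLK2, a stress-responsive kinase, was at 128 UPM against 57.7 and CCND1, cyclin D1, at 465 against 272, with log2 ratios of 1.01 and 0.67 against cells of the same phase. Among proteases and inhibitors 1 of 21 was higher (SERPINB2, with 48 of its 148 UMIs in 1 cell) and 2 were lower, HTRA1 (133 against 248 UPM) and MMP16 (21.7 against 34.2), shares near those over all genes. None of 20 ER stress genes was called in either direction.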
